A study of Mus musculus with 8 samples.

Results

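The 9 genes described here start blood coagulation at the vessel wall and in tissue, restrain it, sense its proteases, or activate plasminogen: F3, Tfpi, Thbd, F2r, F2rl1, Plau, Plaur, Plat and Serpine2. They were selected by gene symbol from a table of 20152 genes that compares 2 genotypes of mouse embryonic skin, and all 9 were found in it. The group was chosen from knowledge of the same comparison, in which F3 stood out, so the fold changes, p-values and z-scores below are a description of the group and not a test of it.

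RNA was sequenced from the back skin of E14.5 embryos (E counts embryonic days), 4 of them GNAQ R183Q and 4 wild-type controls, with 1 batch label in common. The series design text calls the samples biologically independent. The authors' p-values set the difference between genotypes against the spread between samples, as estimated by DESeq2. GNAQ is the alpha subunit of the Gq protein, which links receptors on the cell surface, the thrombin receptors among them, to phospholipase C beta. The sources used here do not give the cells that carried the R183Q change, its driver, or the strain, sex and litter of the embryos. The deposited values are 1 row per gene, with no value per library, so the members are described by group summaries.

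Tissue factor, encoded by F3, is a membrane receptor that binds factor VII and thereby starts the clotting cascade that ends in thrombin and fibrin. Tissue factor pathway inhibitor and thrombomodulin hold this cascade back at the endothelium, and thrombin and related proteases signal to cells through protease-activated receptors, which couple to Gq and other G proteins. Fibrin is removed by plasmin, which urokinase and tissue-type plasminogen activator cut from plasminogen. In skin, tissue factor is known from keratinocytes and from the adventitia around vessels, outside the blood.

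The start regions of 3 genes are shown to set genes that fell beside one that did not pass: F3 and the plasminogen activator inhibitor gene Serpinb2, which fell in the mutant, and the urokinase receptor gene Plaur, which did not pass the authors' threshold. Each window runs from 250 bases before to 50 bases after a RefSeq transcript start on build GRCm38.p6, and is read 5′ to 3′ on the strand of the gene. The deposited table was made on mm39 and gives no coordinates. Capitals mark every match, on either strand, to 5 motifs. They are the AP-1 motif TGANTCA, where N is any base, the motif GGAATG of TEAD factors and the motif GGGCGG of Sp1 and KLF factors. The remaining motifs are GCGNGGGCG, read by EGR factors, and the TATA box in the form TATAAA.
F3, chr3:121723287-121723586, plus strand: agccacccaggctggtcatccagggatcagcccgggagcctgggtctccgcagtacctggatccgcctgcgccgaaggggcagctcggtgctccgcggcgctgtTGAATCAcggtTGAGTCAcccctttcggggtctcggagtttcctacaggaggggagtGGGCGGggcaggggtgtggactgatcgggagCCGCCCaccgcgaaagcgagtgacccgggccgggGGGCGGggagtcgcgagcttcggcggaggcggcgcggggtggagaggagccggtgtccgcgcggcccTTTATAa
Serpinb2, chr1:107511173-107511472, plus strand: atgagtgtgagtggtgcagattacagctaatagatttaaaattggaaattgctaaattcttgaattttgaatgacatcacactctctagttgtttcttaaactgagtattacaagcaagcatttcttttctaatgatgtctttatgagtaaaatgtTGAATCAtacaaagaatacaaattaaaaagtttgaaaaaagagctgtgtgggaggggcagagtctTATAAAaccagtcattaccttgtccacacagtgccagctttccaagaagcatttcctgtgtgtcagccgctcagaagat
Plaur, chr7:24462233-24462532, plus strand: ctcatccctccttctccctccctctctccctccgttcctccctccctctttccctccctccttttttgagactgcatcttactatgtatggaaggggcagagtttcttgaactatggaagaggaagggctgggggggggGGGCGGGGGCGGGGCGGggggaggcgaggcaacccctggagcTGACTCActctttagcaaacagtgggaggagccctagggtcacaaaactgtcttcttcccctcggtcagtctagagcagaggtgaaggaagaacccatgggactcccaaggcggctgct

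The F3 window held 2 AP-1 matches, at -146 to -140 and -135 to -129 from the transcript start, with 4 bases between them, and 3 Sp1/KLF matches. A TATAAA match on the opposite strand of the F3 window lay after the start, at 44 to 49. A single AP-1 match lay at -94 to -88 in the Serpinb2 window shown and at -69 to -63 in the Plaur window. RefSeq gives Serpinb2 another start downstream, from which the same match lies at -181 to -175. Among 32851 RefSeq windows of the same length, 7.81% held an AP-1 match and 0.46% held at least 2. The window of the protease-activated receptor gene F2rl2 also held 2, at -233 to -227 and -54 to -48. The authors' deposited table lists F2rl2 at 1.99 on the log2 scale, opposite in sign to F3, and it did not pass. For the other motifs the shares were 35.7% for Sp1/KLF, 14.7% for TEAD, 13.6% for TATAAA and 5.55% for EGR. In Plaur the 3 Sp1/KLF matches lie between -111 and -95. Those at -111 to -106 and -105 to -100 overlap the EGR match at -109 to -101. RefSeq windows were matched for 5 of the 9 genes, and 3 of the 5 held an AP-1 match, the third being F2r at -204 to -198. These letter matches describe sequence and were not linked to the expression values.

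F3 fell 3.97-fold in GNAQ R183Q skin, which the authors' deposited table gives as a log2 difference of -1.99 (adjusted p = 8.03e-11 by DESeq2). Its 95% interval, taken from the deposited fold change and p, spanned -2.51 to -1.47. The mean level of 526 normalized counts, split by that fold change, corresponds to about 841 in wild type and 212 in the mutant. In a linear model rebuilt from the z-scores, which called 0 of all 20152 genes, F3 did not pass, at an adjusted p of 0.0979. A smaller p from the authors was listed for 21 genes. Of the 622 genes that passed at an adjusted p of 0.05, 62 had a lower log2 fold change than F3.

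The z-scores show how the libraries of F3 were arranged. A z-score here is a library's log2 CPM minus the mean of all 8 libraries, divided by their SD, and the authors give its mean and median per genotype. For F3 the mean z-score was -0.87 in GNAQ R183Q and 0.87 in wild type. The 2 middle libraries averaged -0.91 and 0.88, and the lowest and highest library together averaged -0.84 and 0.87, so neither genotype's mean rested on 1 extreme library. Given these means, medians and the fixed total variance, all possible arrangements of the 8 values put every GNAQ R183Q library below every wild-type library. The genotypes had to separate in this way for F3 alone of the 9, and for 6.39% of all genes. Of the variance of F3 over the 8 libraries, 87.3% lay between the genotypes.

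**Figure D1:**
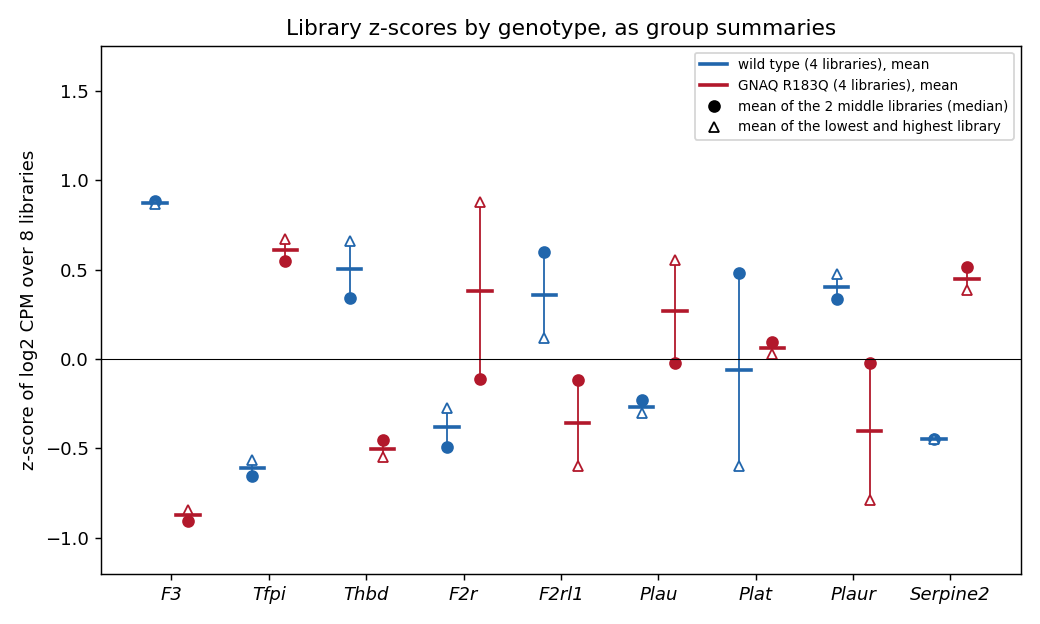
Mean z-score of log2 CPM per genotype (bars) for each of the 9 genes, with the mean of the 2 middle libraries (filled circles) and of the lowest and highest library (open triangles), 4 libraries per genotype. For F3 all 3 summaries lie between -0.91 and -0.84 in GNAQ R183Q and between 0.87 and 0.88 in wild type. In other genes, among them Plat, F2r, Plaur and Plau, the summaries of at least 1 genotype lie further apart.

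The genes that hold coagulation back did not pass the authors' threshold. Tfpi, the inhibitor of the tissue factor and factor VII complex, was expressed at a mean of 1843 normalized counts, and the authors' deposited table puts it at a log2 difference of 0.24 (adjusted p = 0.383). Its 95% interval ran from -0.01 to 0.49. The mean z-score was 0.61 in the mutant and -0.61 in wild type, and whether the 8 libraries of Tfpi overlap between genotypes cannot be told from the summaries. Thbd encodes thrombomodulin, the endothelial thrombin receptor that turns thrombin toward protein C. The authors' deposited table lists Thbd at -0.22 on the log2 scale (adjusted p = 0.474). The interval of Thbd was -0.50 to 0.05, and the libraries of the genotypes had to overlap.

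The receptors that read thrombin and related proteases also stayed short of the threshold. F2r, protease-activated receptor 1 and the main thrombin receptor of many cell types, was listed in the authors' deposited table at 0.26 on the log2 scale (adjusted p = 0.608). Its interval ran from -0.15 to 0.66. In GNAQ R183Q the 2 middle libraries of F2r averaged a z-score of -0.11 and the lowest and highest together averaged 0.88, against -0.49 and -0.27 in wild type. The genotypes thus lay further apart in the outer libraries than in the middle pair. F2rl1, protease-activated receptor 2, responds to trypsin-like proteases and is prominent in keratinocytes. For F2rl1 the authors' deposited table gives a log2 difference of -0.18 (adjusted p = 0.698), and the interval was -0.53 to 0.17. In both receptor genes the libraries of the genotypes had to overlap.

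Among the plasminogen activators, Plau encodes urokinase, listed in the authors' deposited table at a log2 difference of 0.17 (adjusted p = 0.752). The tissue-type activator gene Plat is entered in the authors' deposited table at -0.03 (adjusted p = 0.981). Their intervals were -0.23 to 0.58 and -0.52 to 0.47. For Plau the outer libraries averaged a z-score of 0.55 in the mutant and -0.30 in wild type, and the 2 middle libraries -0.02 and -0.23. For Plat the mean and the median z-score differed in order between the genotypes, and the mean z-score differed in sign from the log2 fold change. Mutant and wild-type means were 0.06 and -0.06, but the medians were 0.10 and 0.48, since the lowest and highest wild-type libraries together averaged -0.60.

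Plaur, the cell-surface receptor that focuses urokinase, was next to F3 at the low end of the 9 genes, and the authors' deposited table puts it at -0.27 on the log2 scale (adjusted p = 0.617). The interval of Plaur ran from -0.70 to 0.16, and the outer mutant libraries averaged a z-score of -0.79 against -0.02 for the middle pair. Serpine2 encodes protease nexin 1, an inhibitor of thrombin and of both activators. The authors' deposited table lists Serpine2 at 0.05 on the log2 scale (adjusted p = 0.877). Its interval of -0.15 to 0.25 was the narrowest of the 9. On z-scores Serpine2 stood higher in the mutant, at a mean of 0.45 and a median of 0.51 against -0.45 and -0.45, with 23.0% of its variance between genotypes.

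Of the 9 genes, 1 fell and 0 rose at an authors' adjusted p of 0.05. Among all 20152 genes 3.09% passed, 2.46% lower and 0.63% higher in GNAQ R183Q, and because the group was chosen with this comparison known nothing is read from the share. The median log2 fold change of the 9 was -0.03, against 0.01 for all genes. Apart from F3, the fold changes ran from -0.27 to 0.26, and all 8 intervals included 0 and lay within a 2-fold change in either direction, between -0.70 and 0.66. The genotypes had to overlap for 7 of the 9 genes and for 80.5% of all genes. The 9 genes were measured at 8.89 to 68.9 CPM, with implied standard errors of 0.10 to 0.27 on the log2 scale.

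**Figure D2:**
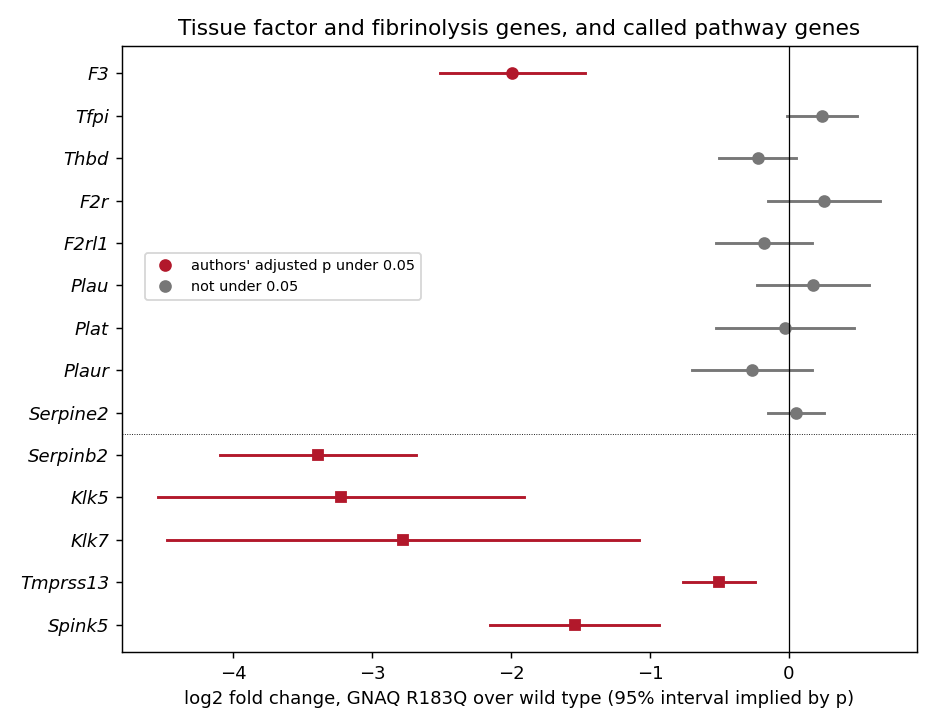
Log2 ratio of GNAQ R183Q to wild type with the 95% interval derived from the authors' p, 4 libraries per genotype, for the 9 genes (circles) and for the 5 other pathway genes under an authors' adjusted p of 0.05 (squares). F3 lies at -1.99, and the intervals of the other 8 genes all include 0.

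**Figure D3:**
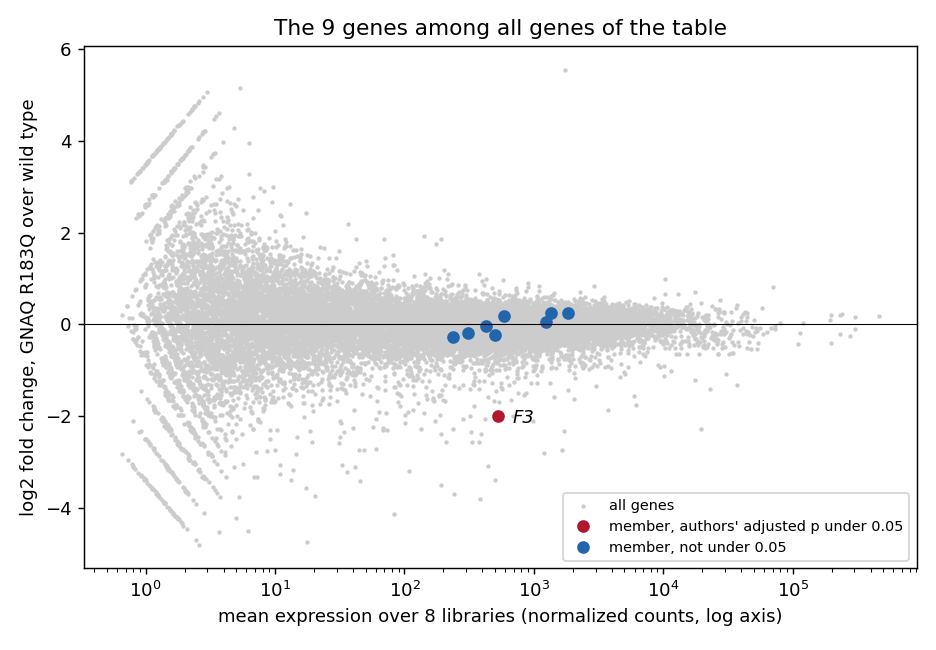
Log2 fold change against mean expression over 8 libraries in normalized counts (log axis) for all 20152 genes (grey), with the 9 genes in colour. F3, at a mean of 526, stands at -1.99, and the other 8 genes lie between -0.27 and 0.26.

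Levels between genes are compared per kilobase of the longest annotated transcript, as normalized counts per kb, and no error is available for them. In wild type, Serpine2 had the highest level, 554, followed by F3 at 449, Tfpi at 426 and F2r at 368. Lower levels were found for Plau at 234, Plaur at 173, Plat at 169, Thbd at 144 and F2rl1 at 120. In GNAQ R183Q the F3 level was 113, which moved F3 from position 2 to position 8 of the 9, next to Thbd at 123 and F2rl1 at 106. The level of its inhibitor gene Tfpi was 426 in wild type and 503 in the mutant. The value of Tfpi was thus near that of F3 in wild-type skin and above it in mutant skin. Whether neighbours in this order differ beyond the spread of the libraries could not be tested.

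**Figure D4:**
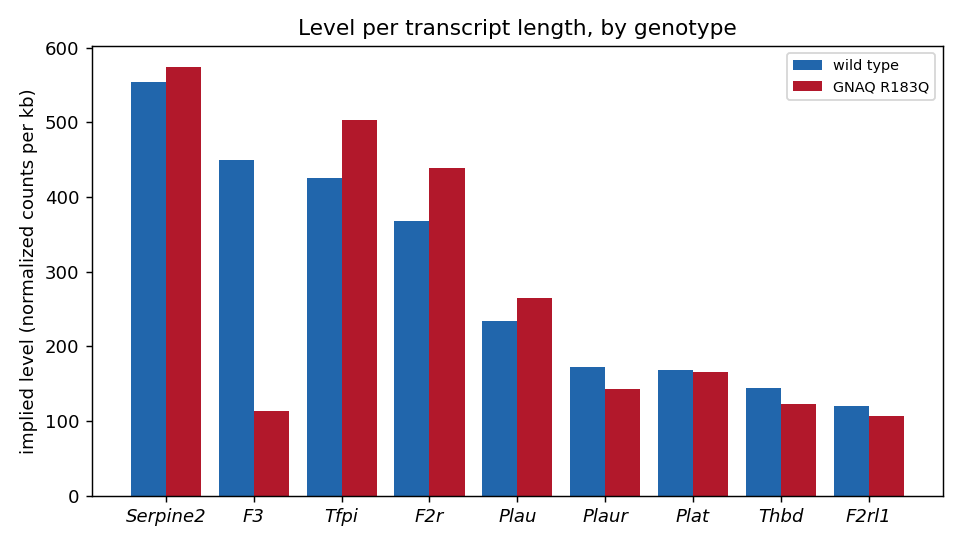
Level of each of the 9 genes in normalized counts per kb of transcript, implied for wild type (blue) and GNAQ R183Q (red) by the authors' mean and fold change, with no error available. F3 stands at 449 in wild type and 113 in the mutant, while the bars of the other genes lie close together.

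The rest of the pathway was examined through lists of 47 genes, of which 35 were in the table. Of the 35, 5 fell and 0 rose, beside 2.46% of all genes lower and 0.63% higher. The median log2 fold change of the 35 was -0.16. These lists were drawn up with earlier results of these data known, so the count is a description. The 5 were 1 fibrinolysis gene and 4 genes of epidermal serine proteases and their inhibitors.

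Serpinb2, which encodes plasminogen activator inhibitor 2, a keratinocyte and macrophage inhibitor of urokinase, fell 10.5-fold. The authors' deposited table gives it a log2 difference of -3.39 (adjusted p = 1.34e-17). The interval ran from -4.09 to -2.68. Every mutant library had to lie below every wild-type library, beside 6.39% of all genes that had to separate. Its mean level split into about 906 normalized counts in wild type and 86.5 in the mutant. Of the 10 measured genes of this list Serpinb2 was the only one past the threshold, and the list median was -0.24. Plasminogen itself, Plg, was close to undetected at a mean of 1.05 normalized counts, and the plasminogen-binding annexin gene Anxa2 was abundant at 40981. The authors' deposited table lists Anxa2 at -0.20 on the log2 scale (adjusted p = 0.645).

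Of 8 measured genes in the list of epidermal serine proteases linked to protease-activated receptor 2, and their inhibitors, 4 fell and 0 rose, beside 2.46% of all genes lower and 0.63% higher, and the median log2 fold change was -0.46. The list was drawn up with these results known, so its count is no independent evidence of a direction. They act in different directions. Klk5 and Klk7 encode kallikrein proteases of the outer epidermis and Tmprss13 a membrane-anchored protease, whereas Spink5 encodes LEKTI, an inhibitor of these kallikreins. In the authors' deposited table the log2 difference was -3.22 for Klk5 (adjusted p = 0.000199) and -2.78 for Klk7 (adjusted p = 0.0464), which passed narrowly at a mean of 0.266 CPM. The authors' deposited table has Tmprss13 at -0.50 (adjusted p = 0.00938) and the inhibitor gene Spink5 at -1.54 (adjusted p = 9.16e-05). The matriptase gene St14 and the prostasin gene Prss8, whose products form a protease cascade upstream of the receptor in mouse epidermis, did not pass. The authors' deposited table lists St14 at -0.26 (adjusted p = 0.483) and Prss8 at -0.10 (adjusted p = 0.878).

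Other circulating or endothelial components did not pass. Of 10 measured plasma coagulation factors 0 passed the authors' DESeq2 threshold and 1 was higher when p was left unadjusted (0.05), the fibrinogen gene Fgb, at a mean of 2.16 normalized counts and, in the authors' deposited table, an adjusted p of 0.316. Of all genes, 5.94% were higher and 8.23% lower at that unadjusted p. Only 3 of the 10 reached 1 CPM. They were F13a1, the transglutaminase subunit of factor XIII found in macrophages, at 116 CPM, F8 at 3.92 CPM and the endothelial gene Vwf at 3.85 CPM. F7, the plasma partner of tissue factor, lay at 0.0758 CPM and did not pass (adjusted p = 0.355 in the authors' deposited table). With z-scores on the sample SD its 4 mutant libraries had to lie above its 4 wild-type libraries, beside 6.39% of all genes that had to separate. With a population SD the genotypes could overlap. The hepatocyte markers, 5 of 5 below 1 CPM, were near the floor as well, and most plasma factors are made in liver.

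Of 5 measured anticoagulant genes 0 passed the authors' DESeq2 threshold, and 1 was higher when p was left unadjusted (0.05), beside 5.94% of all genes. It was the antithrombin gene Serpinc1, which the authors' deposited table puts at 0.42 on the log2 scale (adjusted p = 0.128). Its mutant libraries all had to lie above the wild-type ones with the sample SD, but could overlap them with a population SD. The remaining protease-activated receptor genes, F2rl2 and F2rl3, were both below 1 CPM and 0 of the 2 passed the authors' DESeq2 threshold. F2rl2, at 1.99 on the log2 scale in the authors' deposited table (adjusted p = 0.101), was the 1 of this pair below an unadjusted p of 0.05, again beside 5.94% of all genes higher. It had a mean of 6.98 normalized counts, and its 4 mutant libraries had to lie above its 4 wild-type libraries. With the sample SD, 8 of the 35 pathway genes had to separate in either direction, beside 6.39% of all genes. As the lists were drawn up with earlier results known, nothing is read from that count.

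**Figure D5:**
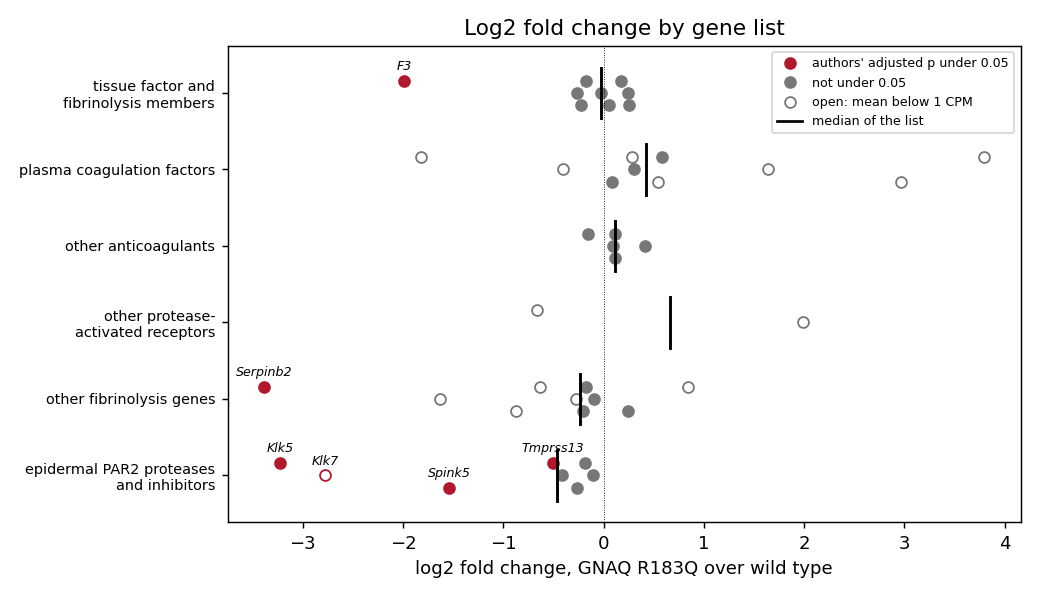
Log2 ratio of GNAQ R183Q to wild type for each measured gene, by list, with list medians as bars, genes under an authors' adjusted p of 0.05 in red and genes below 1 CPM as open symbols. The 5 red genes outside the top row are Serpinb2, Klk5, Klk7, Spink5 and Tmprss13, all lower in the mutant, and among the plasma factors the outermost values belong to genes below 1 CPM.

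Cell type markers were set beside these values, since in bulk skin fewer cells of a type and less RNA per cell cannot be told apart. The counts of fallen markers stand beside 2.46% of all genes lower at the authors' adjusted p of 0.05. Suprabasal keratinocyte markers, led by the cornified envelope gene Lor, fell in 7 of 8 genes, with a median log2 fold change of -1.81. Their summed implied level was 55128 normalized counts in the mutant and 144823 in wild type. Basal keratinocyte markers fell in 1 of 6 genes, Krt15, and summed to 53549 in the mutant and 64189 in wild type. Krt15 alone made up 7556 and 15256 of these sums. Of the 6 log2 fold changes 4 were negative and 2 positive. Endothelial markers summed to 8060 in the mutant and 8042 in wild type. Of their 8 genes 0 passed the authors' DESeq2 threshold and 0 lay below an unadjusted p of 0.05. At that unadjusted p, 8.23% of all genes were lower and 5.94% higher. With so few genes, these counts of 0 are not read as unchanged expression. Mural markers fell in 1 of 8 genes, Kcnj8, and summed to 13347 and 11740. F3 and Serpinb2 moved in the same direction as the suprabasal markers. Negative medians were also found for hepatocyte (-0.88, each gene below 1 CPM), mast cell (-0.65), platelet (-0.42) and skeletal muscle (-0.21) markers. Those of fibroblast, basal keratinocyte and endothelial markers were negative too, at -0.17, -0.11 and -0.10. Mural, macrophage and Schwann cell medians were positive, at 0.10, 0.05 and 0.08. Of the endothelial markers 5 had a negative and 3 a positive log2 fold change. The part of any cell type in the F3 value was not tested.

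Among the remaining markers, fibroblast genes fell in 1 of 8, Dpt, and summed to 246897 normalized counts in the mutant and 276652 in wild type. Mast cell genes fell in 2 of 6, led by Tpsb2, and muscle genes in 1 of 6, Ckm, again beside 2.46% of all genes lower. Mast cell markers summed to 9231 normalized counts in the mutant and 14847 in wild type. Macrophage, platelet and Schwann cell lists had 0 of 6, 0 of 6 and 0 of 4 genes past the authors' DESeq2 threshold, with 0, 1 and 1 lower genes at an unadjusted p of 0.05, beside 8.23% of all genes. No marker was listed at 0. Krt5, a keratin of basal keratinocytes, stood at 1106 CPM and the dermal collagen gene Col1a1 at 1667 CPM, the genes by which the skin label was checked. Gnaq is at 0.09 on the log2 scale in the authors' deposited table. Since a gene total does not separate R183Q transcripts from unchanged ones, this value does not check the labels.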

How the data were processed

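RNA from 4 GNAQ R183Q and 4 wild-type back skins, grouped by their titles, had been compared by the authors. The submitters' processing notes name DESeq2 and mm39, and the sources used here do not give the aligner, counter, annotation or filters. The mean expression column is a deposited signal, taken here as normalized counts (26.8 of them equal 1 CPM). Per the file headers, the authors deposited a log2 fold change, a p-value and its adjusted form for each gene. The z-score columns were deposited as a mean and a median score per genotype of log2 CPM.

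A count test had been planned for values per library. The table has none, so the authors' adjusted p was used with a threshold of 0.05, and depth per library is unknown. Intervals assume a Wald test (SE = log2 fold change over the normal quantile that matches p). Separation or overlap of the genotypes was derived from means, medians and a sample SD over 8 libraries. This step and a linear model rebuilt from mean z-scores were tested on simulated data. Benjamini-Hochberg adjustment covered all 20152 genes. Transcript lengths came from GENCODE vM21 by symbol, promoters from RefSeq. Python 3.11.15, numpy 2.4.6, scipy 1.17.1 and patsy 1.0.2 were used.

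Members and lists were chosen with earlier results of these data known. Named genes were the 9 members, up to 4 called genes per pathway list and direction or else the smallest p, and the called marker of smallest p per list. Genes named beyond this, to give the level or role of a pathway component, were chosen after their values were seen: Plg, Anxa2, St14, Prss8, F7, F8, F13a1, Vwf, F2rl3, Krt5, Col1a1, Ptgis, Nos3, Entpd1 and Pdpn. Likeness of pattern to F3 was not computed without values per library. Alternatives were other thresholds, a filter on low values, centring, the rebuilt model and removal of a length and GC trend.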

Additional observations from a re-analysis of the deposited data

How the results depend on the processing

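The count of 1 fallen gene among the 9 was unchanged under 6 of 7 alternatives, and it was F3 each time: adjusted p of 0.01 or 0.1, a 2-fold minimum, genes of at least 1 CPM only, centring, and removal of the length and GC trend. F3 had an adjusted p of 6.62e-11 after centring and 4.54e-10 after trend removal, where its log2 fold change was -1.91. The pathway count of 5 was 4 or 5 under the same alternatives. Klk7 was lost at an adjusted p of 0.01 and was not tested at 1 CPM or after trend removal, and Tmprss13 was lost under the 2-fold minimum.

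The linear model rebuilt from mean z-scores, with 6 residual degrees of freedom and a spread estimated gene by gene, called 0 of the 9, 0 of the 35 pathway genes and 0 of all 20152 genes. The smallest adjusted p over all genes was 0.0503. The log2 fold change of F3 was -1.99 with an adjusted p of 0.0979, and at an unadjusted p of 0.05 it called 1 of the 9, 8 of the 35 and 2481 of all genes. With a population SD in place of the sample SD, chosen after seeing the data, F3 was still the 1 member whose genotypes had to separate, while Tfpi had to overlap. Among the pathway genes, F7 and Serpinc1 then no longer had to separate, while Serpinb2 and F2rl2 still did.

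No paired analysis was possible because the table holds no value per library, and for the same reason leaving out each replicate was not run. Depth limits genes below 1 CPM, where intervals are wide.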

Other observations

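A further list, chosen after the data were seen, covered surface and enzyme genes that restrain or bind platelets. Of its 8 genes 6 were in the table, 1 fell and 0 rose, beside 2.46% of all genes lower, and the median log2 fold change was -0.18. The 1 was Ptgs1, cyclooxygenase 1, which makes the precursor of thromboxane and prostacyclin, which the authors' deposited table puts at -0.92 (adjusted p = 0.00581). The prostacyclin synthase gene Ptgis is listed in the authors' deposited table at -0.44 (adjusted p = 0.327). The endothelial nitric oxide synthase gene Nos3 was at 0.15, the ATP-degrading ectoenzyme gene Entpd1 at -0.23 and the gene of the platelet-activating lymphatic protein podoplanin, Pdpn, at -0.12 in the authors' deposited table, and none of these 3 passed the authors' threshold.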
